A study of Mus musculus with 12 samples.

Results

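The 48 genes described here encode the machinery that licenses, opens and copies DNA in S phase, together with the enzymes that make its nucleotides and the E2F and cyclin E regulators that switch it on. They were chosen by name and not by their measured values, although earlier results of these data were known. All 48 were found among the 38898 genes of the RNA-seq data, and all 48 passed the filter on low counts, which left 17602 genes for testing. RNA was measured in 12 bulk tumors grown from Rd76-9 cells, a mouse rhabdomyosarcoma (RMS) line, after injection into the flank of WT C57/Bl6J mice aged 8 to 12 weeks. There were 3 tumors in each of 4 groups, all dissected 16 days after inoculation. The control group, called vehicle here (m1, m2 and m3), received empty nanoparticles and saline. The VCR group (m4, m5 and m6) received vincristine (VCR), a drug that binds tubulin and stops cells in mitosis, at 0.25 mg/kg every 7 days. The RCM1-NPFA group (m7, m8 and m9) received 8 µg per injection, every 48 hours, of RCM1, a small-molecule inhibitor of the transcription factor FOXM1, packed in nanoparticles that carry folic acid. The combination group (m10, m11 and m12) received both agents. The treatment label of the vehicle-treated tumors also names RCM1, whereas their titles and the design text call them controls, and they were used as controls. A comparison of these groups asks whether blocking tubulin, FOXM1 or both at these doses was accompanied by a change in the RNA of the replication machinery.

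DNA replication starts at origins bound by the origin recognition complex. CDC6 and CDT1 load the MCM helicase onto origins in G1 phase, and geminin (Gmnn) blocks CDT1 afterwards, so that each origin fires only a single time. In S phase CDC45 and the GINS complex turn the MCM ring into an active helicase, primase and the DNA polymerases copy the strands, and PCNA, loaded by the RFC complex, holds the polymerases on DNA. E2F transcription factors, released from the retinoblastoma protein as cyclin E rises, drive many of these genes together, which is why their RNA is widely read as a sign of proliferating cells. In bulk tumors a lower share of cycling cells and less RNA per cycling cell cannot be told apart.

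Promoter sequences of 39 of the 48 genes were given by RefSeq for GRCm38.p6. They are shown because E2F sites are the best known shared feature of these promoters. The 250 bases before each start were searched on both strands for the letters TTTCCCGC, TTTCGCGC, TTTGCCGC and TTTGGCGC, which are forms of the E2F site. Of the 39 genes, 10 (25.6%) held at least 1 of them. The share was 583 of all 27025 genes with a promoter sequence (2.16%) and 454 of the 13517 such genes that were tested (3.36%). A gene was counted if any of its promoter sequences matched, so these are shares of genes. The 10 were Cdc6, Dnmt1, Gins3, Mcm5, Mcm6, Mcm7, Orc1, Pola1, Rfc3 and Uhrf1. The letters CCAAT, the site of NF-Y, stood in 26 of the 39 (66.7%), in 37.5% of all such genes and in 39.8% of those tested. They stood in 20 of 25 mitotic genes (80.0%), so they were not particular to the replication genes. The letters TTTGAA, the core of the element typical of mitotic promoters, stood in 7 of the 39 (17.9%), close to the 18.3% of all promoters, and in 9 of 25 promoters of mitotic genes (36.0%). These matches are a description of the letters and do not show that a factor bound there. For 5 of the 10 the match overlapped an annotated exon and is not printed. The others are printed 5′ to 3′ on the strand of the gene, with the matched letters in capitals. Positions are counted from the start used for each promoter sequence. For 25 of the 39 genes such a start was the annotated gene start. Of the printed positions, those of Mcm6 are distances from the annotated gene start and the others are not.
Mcm6, chr1:128359788-128359835, minus strand, position -110: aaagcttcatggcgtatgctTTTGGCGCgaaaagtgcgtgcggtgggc
Mcm6, chr1:128359725-128359772, minus strand, position -47: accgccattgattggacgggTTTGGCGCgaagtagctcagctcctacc
Mcm5, chr8:75109336-75109383, plus strand, position -153: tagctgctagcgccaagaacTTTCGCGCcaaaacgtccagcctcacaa
Cdc6, chr11:98907993-98908040, plus strand, position -138: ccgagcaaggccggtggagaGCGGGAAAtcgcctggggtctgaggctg
Uhrf1, chr17:56304108-56304155, plus strand, position -185: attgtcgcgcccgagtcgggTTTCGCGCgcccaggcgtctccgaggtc
Pola1, chrX:93632266-93632313, minus strand, position -138: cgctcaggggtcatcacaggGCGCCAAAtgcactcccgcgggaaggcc
The Mcm6 and Mcm5 stretches lie before the annotated gene. Those of Cdc6, Uhrf1 and Pola1 lie inside the widest annotated span of the gene, outside its exons. In the upstream Mcm6 stretch and in the Mcm5 stretch the capitals overlap a further match on the opposite strand.

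Sequencing depth was even, with 29342195 to 32108055 estimated counts per tumor, and no tumor held fewer than 334 counts of any of the 48 genes. No tumors of a group agreed within counting noise (lowest chi-square per degree of freedom 13.8). The labels do not say whether each tumor came from its own mouse. The p-values set group differences against the spread between these tumors and treat each tumor as independent. The vehicle-treated tumors expressed the muscle lineage markers Myf5 (45.2 to 59.9 TPM, a level scaled by transcript length and depth) and Cdh15 (78.1 to 105.1 TPM), while Myod1, Myog, Pax7 and Myh8 had 3 or fewer counts in each of them. The summed level of 20 adult muscle fibre genes was 363 to 565 TPM in the vehicle-treated tumors, 2442 to 13843 TPM in the VCR tumors, 515 to 23501 TPM in the RCM1-NPFA tumors and 921 to 6158 TPM in the combination tumors. Of those 20, 7 were called higher after VCR, as were Des, Myod1 and Myog of the muscle lineage list. The log2 fold change was above 0 for 8 of the 10 tested genes of that list and below 0 for 2. Myod1 and Myog stayed low, at up to 2.16 and 2.44 TPM in the VCR tumors. The summed level of 16 leukocyte genes overlapped in all 4 groups (1959.7 to 3090.0 TPM over the 12 tumors), with 0 of 14 tested called, and that of 8 endothelial genes was 79.2 to 109 TPM in the vehicle-treated tumors and 109.7 to 135 TPM in the VCR tumors, with Eng and Tie1 called higher after VCR. It was 103 to 127 TPM in the RCM1-NPFA tumors and 113 to 115 TPM in the combination tumors, the latter also all above vehicle. After VCR the log2 fold change was above 0 for 7 of the 8 endothelial genes and below 0 for 1. Vwf was at 2.54 to 3.15 TPM in the VCR tumors and 3.14 to 5.90 TPM in the vehicle-treated tumors. Adipocyte genes summed to 18.96 to 334 TPM and keratinocyte genes to 3.47 to 4.76 TPM over the 12 tumors, with none called. Single genes made up a large part of several sums. Over the 12 tumors Lyz2 was at 1472 to 2554 TPM among the leukocyte genes and Fabp4 at 18.5 to 198 TPM among the adipocyte genes. Krt10 was at 3.25 to 4.37 TPM among the keratinocyte genes. In the vehicle-treated tumors Eno3 was at 261 to 286 TPM among the muscle fibre genes.

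The replication genes were abundant in every group. Their mean level over the 12 tumors ran from 6.83 TPM for Orc1, the largest subunit of the origin recognition complex, to 421 TPM for Pcna, the sliding clamp, with a median of 66.5 TPM against 9.81 TPM for all tested genes. There were 12 genes above 100 TPM and 4 (Orc1, Gins3, Ccne2 and E2f2) under 20 TPM. The median coefficient of variation of the 48 genes over the 12 tumors was 12.2% (6.81% for Rpa3 to 23.9% for Ccne2), against 15.2% for all tested genes. All tested genes had a lower median level, and the comparison was not matched for level. Summed over the 48 genes, the level was 3789 ± 549 TPM in the vehicle-treated tumors, 3874 ± 168 TPM in the VCR tumors, 3935 ± 627 TPM in the RCM1-NPFA tumors and 4087 ± 277 TPM in the combination tumors (mean ± SD, n = 3). The 4 means lay within the SD of the vehicle-treated tumors of each other.

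**Figure D1:**
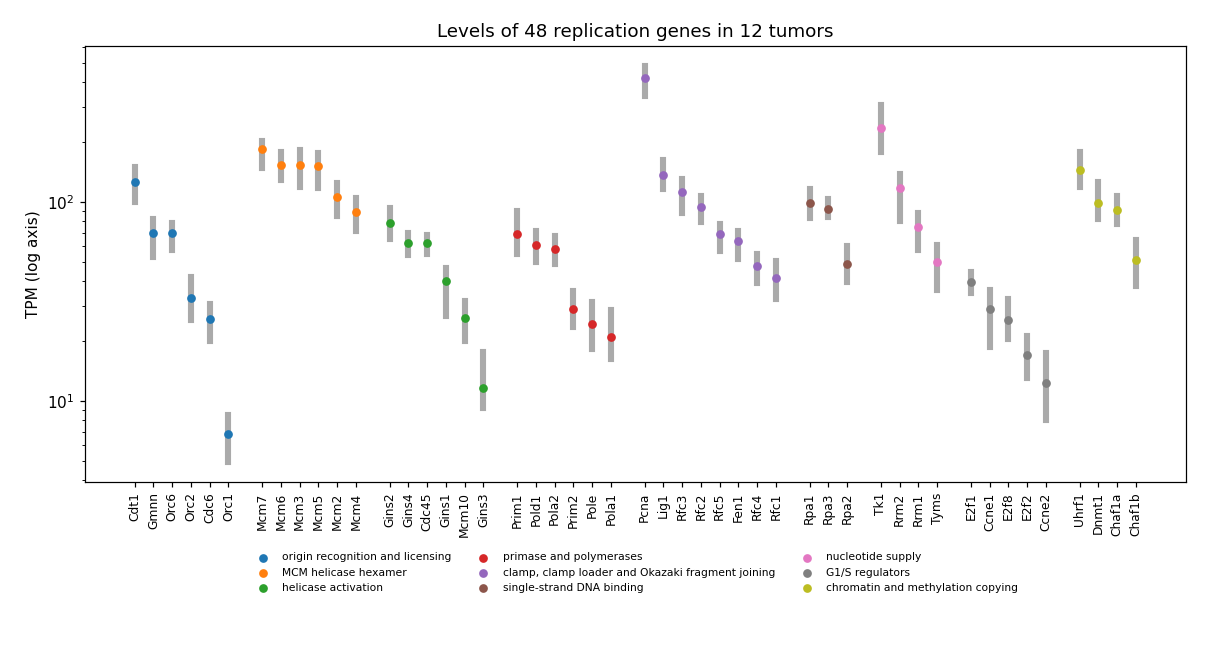
Level of each of the 48 genes in TPM (log axis), ordered by role and by level. Points are means over the 12 tumors and grey bars run from the lowest to the highest tumor. Pcna stood highest at 421 TPM and Orc1 lowest at 6.83 TPM, and the range of each gene over the tumors was narrow beside that.

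Few of these genes passed the test in any comparison. The test was edgeR's quasi-likelihood F test with Benjamini-Hochberg adjustment over all tested genes, and a gene was called at an adjusted p under 0.1. After VCR 1 of the 48 was called, Ccne1 (higher), where 5.55% of all tested genes were called, 2.8% higher and 2.75% lower. No member was called after RCM1-NPFA, after the combination, in the combination against VCR, in the combination against RCM1-NPFA or in the interaction of the drugs, and in each of these 5 comparisons 0.0% of all tested genes were called. At an unadjusted p under 0.05 there were 3 members after VCR (Ccne1, Rrm2 and Rfc3; 22.1% of all tested genes) and 2 after the combination (Ccne1 and Rfc3; 7.31%). There were 0 after RCM1-NPFA (9.78%), in the combination against VCR (5.26%) or against RCM1-NPFA (2.07%), and in the interaction (13.8%). DESeq2 and limma-voom, each fitted to all 12 tumors, likewise called 1 member after VCR and 0 elsewhere. Their background was not the same: of the genes with an adjusted p, DESeq2 called 14.4% after VCR, 1.52% after RCM1-NPFA, 0.362% after the combination, 2.84% in the interaction and 0.0% in the other comparisons, and limma-voom called 3.87% after VCR and 0.0% elsewhere. In all 6 comparisons the 95% intervals of all 48 genes lay between -1 and 1 on the log2 scale, and the median interval reached 0.28 to either side of its estimate (0.40 for the interaction).

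The small differences leaned towards higher RNA in the treated tumors. The log2 fold change was above 0 for 41 of 48 genes after VCR (50.3% of all tested genes), 43 after RCM1-NPFA (50.7%) and 41 after the combination (50.4%), with medians of 0.10, 0.079 and 0.088. The median over all tested genes was within 0.01 of 0 in each. All 3 comparisons use the same 3 vehicle-treated tumors, so these counts are not independent of each other. With splines of transcript length and GC content in the fit the counts were 34, 41 and 43. They also rest on single tumors. Without m3 the counts above 0 were 28 of 48 after VCR, 31 after RCM1-NPFA and 36 after the combination, and without m2 they were 43, 46 and 45. Without m8 the count after RCM1-NPFA was 14 of 48, and the median changed sign to -0.04. Between the combination and VCR the median was 0.0010 with 24 of 48 genes above 0 (49.1% of all tested genes), and between the combination and RCM1-NPFA it was 0.0064 with 27 above 0 (47.9%). The second of these turned on the RCM1-NPFA tumors, with 4 of 48 above 0 without m7 (median -0.10) and 46 without m8 (median 0.15), and the first ran from 19 to 30 when a tumor was left out. For the interaction the median was -0.08 with 11 above 0 (48.7%). Without m8 the median was 0.03, and the count ran from 4 to 28 when a tumor was left out.

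**Figure D2:**
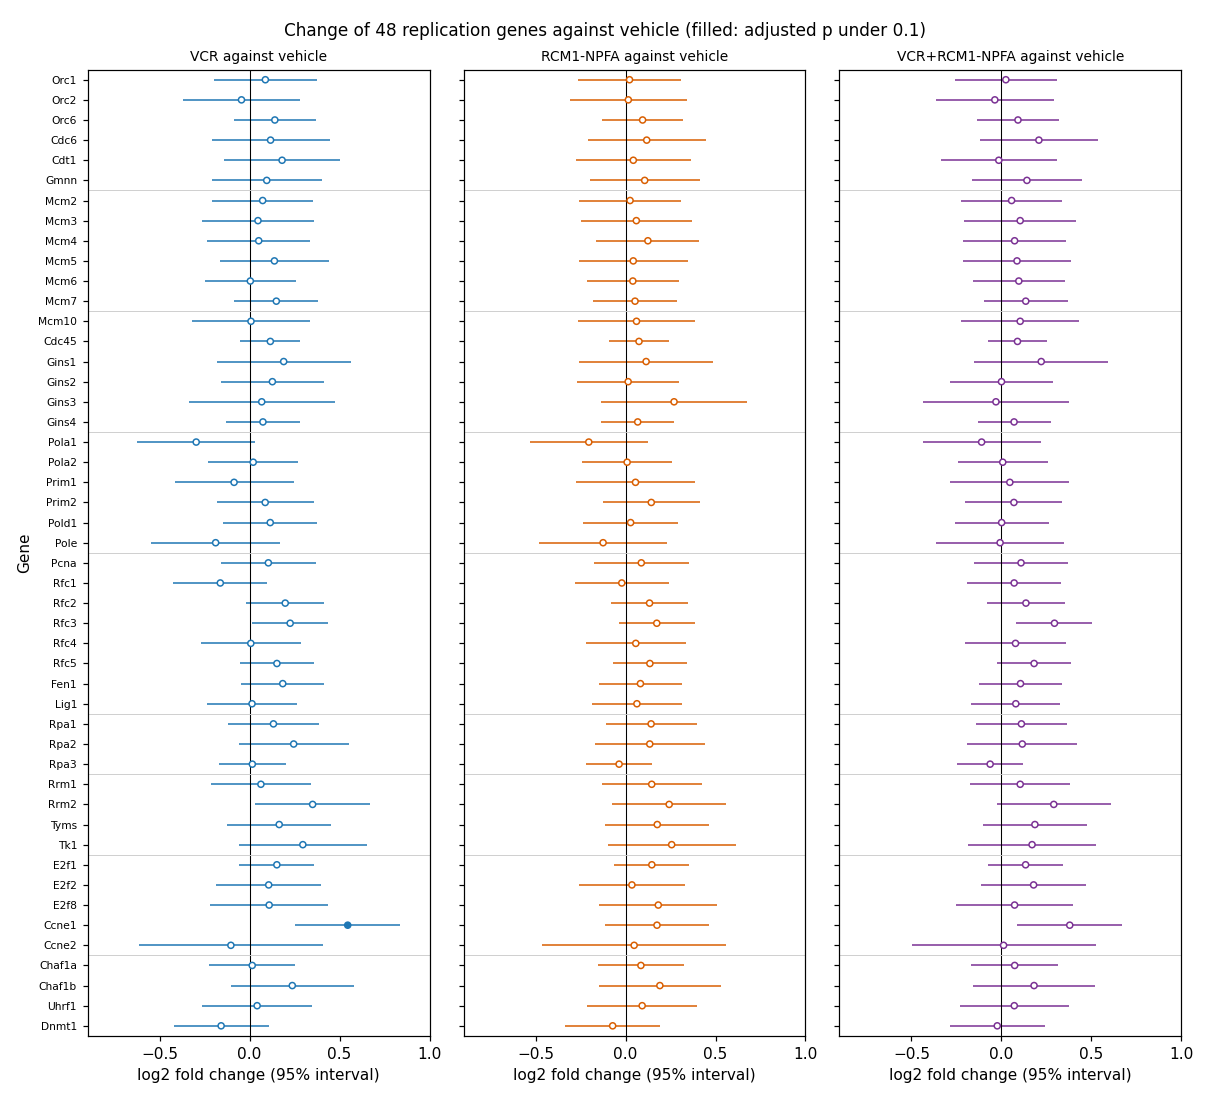
Log2 fold change of each of the 48 genes against vehicle with its 95% interval, by treatment; lines separate the roles and a filled point is a gene with an adjusted p under 0.1. Only Ccne1 after VCR is filled, and most intervals cross 0.

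Counted by groups that do not overlap, 8 genes had every VCR tumor above every vehicle-treated tumor (13.5% of all tested genes did) and 0 had every VCR tumor below (10.9%). The 8 were Ccne1, Cdc45, E2f1, Mcm7, Rfc2, Rfc3, Rrm2 and Tk1. After the combination Ccne1, Cdc45 and Rfc3 had no overlap, all 3 higher (7.1% of all tested genes, and 5.53% lower), and after RCM1-NPFA no gene did (11.4% in either direction). Against VCR the combination tumors were all higher for Dnmt1, Mcm10, Pole and Prim1 (6.03%) and all lower for Rpa3 (6.87%). Against RCM1-NPFA they overlapped for all 48 genes (5.88%). The shares of higher genes after VCR and after the combination were near the background, and the counts of 0 lay below it.

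Of the regulators of S phase entry, Ccne1, encoding cyclin E1, the partner of CDK2 at the G1/S transition, was the only gene called. Ccne1 (chr7:38097984-38107490, GRCm38) had 28.05, 31.9 and 23.02 CPM in the vehicle-treated tumors, 40.3, 42.7 and 38.1 in the VCR tumors, 26.2, 34.5 and 33.04 in the RCM1-NPFA tumors and 39.6, 34.6 and 33.8 in the combination tumors, where CPM are counts scaled by the normalized size of the library. Every VCR tumor and every combination tumor lay above every vehicle-treated tumor, and the RCM1-NPFA tumors overlapped with vehicle. Its mean was 40.4 ± 2.31 CPM after VCR and 27.7 ± 4.48 CPM in the vehicle-treated tumors (SD, n = 3), a log2 fold change of 0.54 (SE 0.13) with an edgeR adjusted p of 0.0809 and a fold of 1.46. A two-sided exact permutation test of 3 tumors against 3 gave 0.1, the smallest p it can reach. After the combination the log2 fold change was 0.38 (SE 0.13) with an adjusted p of 0.666, and after RCM1-NPFA it was 0.17 (SE 0.13) with an adjusted p of 0.715. The combination differed from VCR alone by -0.17 (95% interval -0.46 to 0.12, adjusted p 0.859). The call was close to the threshold. It was lost without m1, m2, m3, m4, m5, m11 or m12 (adjusted p 0.1001 to 0.313), with only the 6 tumors compared in the fit (0.112) and after splines of transcript length and GC content (log2 fold change 0.41, adjusted p 0.175), and it was kept without m6, m7, m8, m9 or m10. Over all alternatives the adjusted p ran from 0.00628, with DESeq2 on all 12 tumors, to 0.313, without m5. The summed adult muscle fibre level was also higher in each VCR tumor than in each vehicle-treated tumor, and its part in the Ccne1 result was not tested.

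Ccne2, encoding cyclin E2, which performs the same task, did not show this pattern. Its level was 18.5, 26.98 and 16.2 CPM in the vehicle-treated tumors, 20.97, 14.9 and 21.4 in the VCR tumors, 18.5, 24.5 and 20.7 in the RCM1-NPFA tumors and 26.3, 20.7 and 15.1 in the combination tumors, and the 4 groups overlapped widely. Among the vehicle-treated tumors m2 was high and among the VCR tumors m5 was low. The log2 fold changes were -0.10 (SE 0.23) after VCR, 0.048 (SE 0.23) after RCM1-NPFA and 0.012 (SE 0.23) after the combination, the widest errors of all 48 genes. In TPM, which is scaled per length and so can be set between genes, Ccne1 exceeded Ccne2 in 12 of 12 tumors. The ratio was 1.96 ± 0.28 in the vehicle-treated tumors, 3.17 ± 0.90 in the VCR tumors, 2.12 ± 0.16 in the RCM1-NPFA tumors and 2.55 ± 0.57 in the combination tumors, and it ranged from 1.65 in m2 to 4.19 in m5. Of the E2F genes, E2f1, an activator of the replication genes, was the most abundant at 39.6 ± 3.01 TPM (SD over 12 tumors). E2f1 had 55.8, 62.3 and 59.9 CPM in the vehicle-treated tumors, 66.1, 67.1 and 64.3 in the VCR tumors, 56.5, 74.3 and 66.1 in the RCM1-NPFA tumors and 59.2, 67.6 and 68.4 in the combination tumors. The VCR tumors lay above the vehicle-treated tumors by a small margin, and the log2 fold changes were 0.15 (SE 0.10) after VCR, 0.15 (SE 0.10) after RCM1-NPFA and 0.13 (SE 0.10) after the combination. E2f2, a further activator, had log2 fold changes of 0.11, 0.035 and 0.18 in the same order, and E2f8, a repressor that shuts the program off, had 0.11, 0.18 and 0.073.

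**Figure D3:**
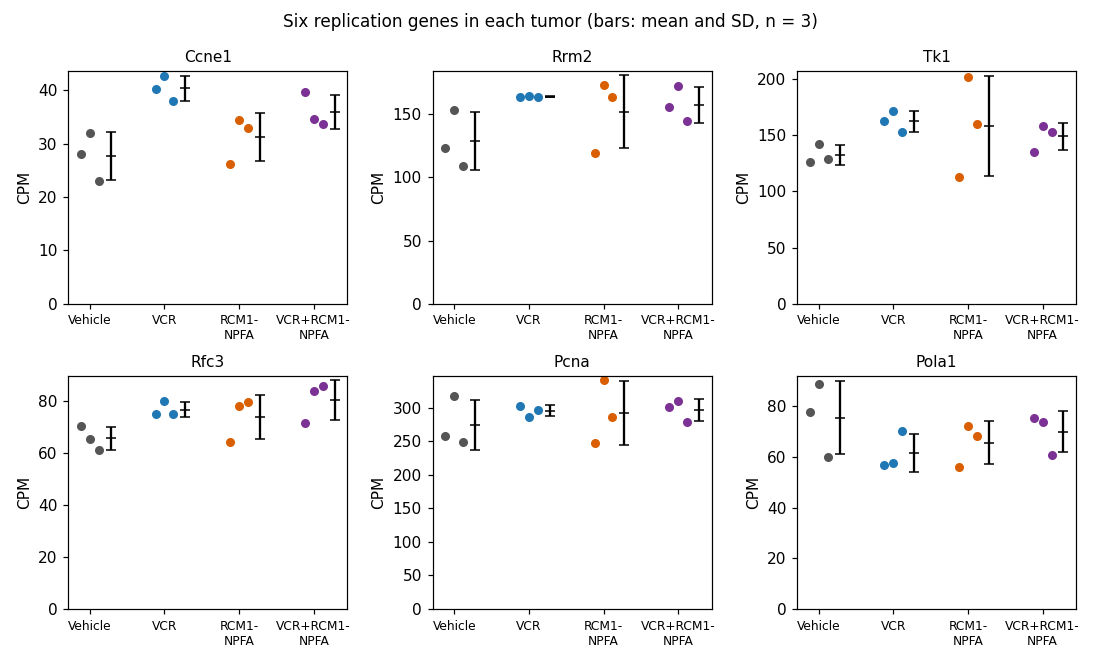
CPM of Ccne1, Rrm2, Tk1, Rfc3, Pcna and Pola1 in each of the 12 tumors, with axes from 0; points are tumors and black bars are the mean and SD of 3. The VCR tumors lie above the vehicle-treated tumors for Ccne1, Rrm2, Tk1 and Rfc3, and the groups overlap for Pcna and Pola1.

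None of the 6 genes of origin recognition and licensing was called in any comparison. Cdt1, the licensing factor, was the most abundant at 126 ± 13.4 TPM. It had 143, 159 and 178 CPM in the vehicle-treated tumors, 193, 181 and 169 in the VCR tumors, 130.5, 203 and 160.1 in the RCM1-NPFA tumors and 137, 170.3 and 167 in the combination tumors. The values of the 4 groups overlapped, with the lowest in m7 and the highest in m8, and the log2 fold changes were 0.18 (SE 0.15) after VCR, 0.043 (SE 0.15) after RCM1-NPFA and -0.015 (SE 0.15) after the combination. Gmnn, encoding the inhibitor of CDT1, stood at 69.9 ± 8.63 TPM, and the ratio of Cdt1 to Gmnn in TPM was above 1 in all 12 tumors, from 1.53 in m10 to 2.41 in m3. Orc2, an origin recognition subunit, was among the 3 lowest genes after the combination and had 57.8, 85.1 and 65.5 CPM in the vehicle-treated tumors, 68.3, 63.2 and 70.4 in the VCR tumors, 67.3, 72.8 and 70.5 in the RCM1-NPFA tumors and 80.97, 67.7 and 54.5 in the combination tumors. Within the combination group it spanned the values of all other groups but those of m2, and its log2 fold change there was -0.037 (SE 0.15). Of the measured subunits of that complex Orc6 was at 69.8 TPM and Orc1 at 6.83 TPM, a ratio of 9.17 to 11.7 in the 12 tumors. Orc1, which is itself made under E2F control, had log2 fold changes of 0.087, 0.022 and 0.025. Cdc6, the partner of CDT1 in loading, had 0.12, 0.12 and 0.21.

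None of the 6 genes of the MCM ring, the motor of the replicative helicase, passed the test in any comparison. Mcm7 was the most abundant at 184 ± 18.03 TPM and Mcm4 the least at 88.6 ± 11.3 TPM, in 12 of 12 tumors, with a ratio of 1.90 to 2.36. Mcm7 had 239, 269 and 235 CPM in the vehicle-treated tumors, 271, 277 and 276 in the VCR tumors, 211, 294 and 265 in the RCM1-NPFA tumors and 271, 282 and 262 in the combination tumors. The VCR tumors lay just above m2, the highest vehicle-treated tumor, and the log2 fold changes were 0.15 (SE 0.11) after VCR, 0.053 (SE 0.11) after RCM1-NPFA and 0.14 (SE 0.11) after the combination. All 6 were above 0 in all 3 comparisons with vehicle, between 0.0035 (Mcm6 after VCR) and 0.15 (Mcm7 after VCR), and 0 passed the test. Of the 6 genes that activate the ring, Gins2, a subunit of the 4-part GINS complex, was the most abundant at 78.3 ± 7.91 TPM, and had 43.9, 44.8 and 40.1 CPM in the vehicle-treated tumors, 47.5, 49.1 and 43.9 in the VCR tumors, 36.5, 53.9 and 39.6 in the RCM1-NPFA tumors and 38.9, 46.6 and 43.3 in the combination tumors. The groups overlapped, and the log2 fold changes were 0.13 (SE 0.13) after VCR, 0.014 (SE 0.13) after RCM1-NPFA and 0.00042 (SE 0.13) after the combination. Gins3, the least abundant GINS gene at 11.6 ± 2.17 TPM, had the highest value after RCM1-NPFA of the 48 genes. It had 14.7, 18.1 and 13.8 CPM in the vehicle-treated tumors, 16.5, 15.6 and 16.7 in the VCR tumors, 15.2, 25.7 and 15.3 in the RCM1-NPFA tumors and 14.95, 15.9 and 14.8 in the combination tumors. A single tumor, m8, stood apart from the other 11, and the log2 fold change of 0.27 (SE 0.19) had an adjusted p of 0.682 and was -0.03 without m8. Cdc45, the partner of GINS in the active helicase, varied by no more than 1.24-fold over the 12 tumors, with log2 fold changes of 0.11, 0.075 and 0.089. Mcm10, a factor needed to start unwinding, had 0.007, 0.061 and 0.10.

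The primase and polymerase genes held the lowest log2 fold changes of the set, and 0 of 6 passed the test. Pola1, encoding the catalytic subunit of DNA polymerase alpha, had 77.9, 88.9 and 60.02 CPM in the vehicle-treated tumors, 56.9, 57.5 and 70.2 in the VCR tumors, 56.1, 72.3 and 68.4 in the RCM1-NPFA tumors and 75.4, 73.9 and 60.9 in the combination tumors. Both m4 and m5 lay below all vehicle-treated tumors, m6 lay within the vehicle range, and the other treated groups overlapped with vehicle. The log2 fold changes were -0.30 (SE 0.15) after VCR, -0.20 (SE 0.15) after RCM1-NPFA and -0.11 (SE 0.15) after the combination, with adjusted p of 0.267, 0.706 and 0.883. Pole, encoding the leading-strand polymerase epsilon, had 120.0, 132 and 85.5 CPM in the vehicle-treated tumors, 91.6, 99.05 and 106 in the VCR tumors, 79.9, 116 and 114 in the RCM1-NPFA tumors and 117, 112 and 107 in the combination tumors. The vehicle-treated tumors alone spanned all treated tumors but m7, and the log2 fold changes were -0.19 (SE 0.16) after VCR, -0.12 (SE 0.16) after RCM1-NPFA and -0.007 (SE 0.16) after the combination. Against VCR the combination was higher by 0.18 (SE 0.16) with no overlap, and the adjusted p was 0.870. Prim1, the catalytic primase subunit and the most abundant of the group at 68.97 ± 9.94 TPM, had 55.1, 65.6 and 56.4 CPM in the vehicle-treated tumors, 57.7, 52.6 and 56.5 in the VCR tumors, 47.04, 79.3 and 57.7 in the RCM1-NPFA tumors and 59.4, 65.3 and 58.2 in the combination tumors. It was highest in m8 and lowest in m7, both of the RCM1-NPFA group, and its log2 fold changes were -0.087 (SE 0.15) after VCR, 0.055 (SE 0.15) after RCM1-NPFA and 0.047 (SE 0.15) after the combination. Prim1 exceeded Pola1, its partner in the same complex, by 2.71 to 4.17 times in TPM. The other 3 genes, Pola2, Prim2 and Pold1, ranged from 0.0012 to 0.14 against vehicle.

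At the clamp, Pcna, the most abundant of the 48 genes, had 258, 317 and 249 CPM in the vehicle-treated tumors, 302, 286 and 296 in the VCR tumors, 247, 342 and 286 in the RCM1-NPFA tumors and 301, 309 and 278 in the combination tumors. The VCR and combination tumors fell within the span of the vehicle-treated tumors, and m8 was the highest of all. The log2 fold changes were 0.10 (SE 0.12) after VCR, 0.088 (SE 0.12) after RCM1-NPFA and 0.11 (SE 0.12) after the combination. Rfc3, a small subunit of the clamp loader, had 70.4, 65.5 and 61.3 CPM in the vehicle-treated tumors, 75.2, 80.2 and 75.1 in the VCR tumors, 64.4, 78.3 and 79.7 in the RCM1-NPFA tumors and 71.8, 84.1 and 86.1 in the combination tumors. All VCR tumors and all combination tumors lay above all vehicle-treated tumors, while m7 did not. The log2 fold changes were 0.22 (SE 0.10) after VCR, 0.17 (SE 0.10) after RCM1-NPFA and 0.29 (SE 0.10) after the combination, with adjusted p of 0.201, 0.594 and 0.666. Rfc1, the large subunit, had a log2 fold change below 0 after VCR, with 119, 139 and 106 CPM in the vehicle-treated tumors, 103, 101 and 121 in the VCR tumors, 106, 123 and 131 in the RCM1-NPFA tumors and 137, 132 and 114 in the combination tumors. Both m4 and m5 were below all vehicle-treated tumors and m6 was not, and the log2 fold changes were -0.16 (SE 0.12) after VCR, -0.021 (SE 0.12) after RCM1-NPFA and 0.071 (SE 0.12) after the combination. In TPM Rfc3 exceeded Rfc1 by 2.05 times in m2 to 3.42 times in m5. Rfc2, Rfc4, Rfc5, Fen1, the flap nuclease, and Lig1, the ligase that joins Okazaki fragments, were above 0 in all 3 comparisons with vehicle, between 0.006 (Rfc4 after VCR) and 0.20 (Rfc2 after VCR), and 0 were called. Of the RPA genes, whose product coats single-stranded DNA, Rpa1 led at 98.7 ± 10.5 TPM, with 157, 186 and 162 CPM in the vehicle-treated tumors, 185, 185 and 183 in the VCR tumors, 155, 219 and 182 in the RCM1-NPFA tumors and 186, 194 and 165 in the combination tumors. The groups overlapped, and the log2 fold changes were 0.13 (SE 0.12) after VCR, 0.14 (SE 0.12) after RCM1-NPFA and 0.11 (SE 0.12) after the combination. Rpa3, the smallest subunit, had 26.97, 30.6 and 27.7 CPM in the vehicle-treated tumors, 29.4, 28.3 and 28.4 in the VCR tumors, 26.8, 30.4 and 25.9 in the RCM1-NPFA tumors and 28.2, 27.5 and 25.9 in the combination tumors. It was the steadiest of all 48 genes, 1.18-fold between the highest and the lowest tumor, and its log2 fold change after the combination was -0.063 (SE 0.085). Rpa2 had 0.24, 0.13 and 0.12.

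The nucleotide supply genes had the highest median of the roles in each comparison with vehicle (0.23 after VCR, 0.21 after RCM1-NPFA and 0.18 after the combination), and 0 of 4 were called. Rrm2, the subunit of ribonucleotide reductase that rises in S phase, had 123, 153 and 109 CPM in the vehicle-treated tumors, 164, 164 and 163 in the VCR tumors, 119.6, 173 and 164 in the RCM1-NPFA tumors and 155, 172 and 144 in the combination tumors. The 3 VCR tumors were nearly equal and all above m2, the highest vehicle-treated tumor, whereas m7 and m12 fell within the vehicle range. The log2 fold changes were 0.35 (SE 0.15) after VCR, 0.24 (SE 0.15) after RCM1-NPFA and 0.29 (SE 0.15) after the combination, with adjusted p of 0.189, 0.626 and 0.692. Tk1, thymidine kinase of the salvage route, had 126, 142 and 128 CPM in the vehicle-treated tumors, 162, 172 and 153 in the VCR tumors, 112, 202 and 159.7 in the RCM1-NPFA tumors and 135, 158 and 153 in the combination tumors. The VCR tumors lay above the vehicle-treated tumors, and the RCM1-NPFA group held both the lowest and the highest tumor of all 12. The log2 fold changes were 0.30 (SE 0.16) after VCR, 0.26 (SE 0.16) after RCM1-NPFA and 0.17 (SE 0.16) after the combination, with adjusted p of 0.305, 0.649 and 0.817. DESeq2 fitted to the VCR and vehicle-treated tumors alone called Tk1 higher (0.28, adjusted p 0.0874), and over all alternatives the adjusted p ran from that value to 0.711, with the length and GC splines, where the log2 fold change was 0.13. Rrm1, the large reductase subunit, had 0.062, 0.15 and 0.10, and the ratio of Rrm2 to Rrm1 in TPM was 1.39 to 1.82. Tyms, thymidylate synthase, had 0.16, 0.18 and 0.19.

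Among the genes that copy chromatin and DNA methylation behind the fork, 0 of 4 were called. Uhrf1, which brings the maintenance methyltransferase to newly copied DNA, was the most abundant at 144 ± 18.3 TPM and had 288, 334 and 269 CPM in the vehicle-treated tumors, 307, 294 and 316 in the VCR tumors, 253, 392 and 305 in the RCM1-NPFA tumors and 303, 339 and 294 in the combination tumors. The groups overlapped, and the log2 fold changes were 0.041 (SE 0.14) after VCR, 0.092 (SE 0.14) after RCM1-NPFA and 0.072 (SE 0.14) after the combination. Dnmt1, that methyltransferase, had 313, 391 and 299 CPM in the vehicle-treated tumors, 296, 294 and 308 in the VCR tumors, 268, 364 and 322 in the RCM1-NPFA tumors and 345, 333 and 308 in the combination tumors. The VCR tumors fell near the lower end of the vehicle range and all below the combination tumors, and the log2 fold changes were -0.16 (SE 0.12) after VCR, -0.072 (SE 0.12) after RCM1-NPFA and -0.023 (SE 0.12) after the combination. Chaf1a and Chaf1b, subunits of the histone chaperone CAF-1, had 0.014 and 0.24 after VCR, 0.085 and 0.19 after RCM1-NPFA and 0.074 and 0.18 after the combination.

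Foxm1, the target of RCM1, and Mki67, the gene of the Ki-67 antigen, were set beside these genes. Foxm1 had 139, 168 and 143 CPM in the vehicle-treated tumors, 167, 172 and 168 in the VCR tumors, 148, 179 and 167 in the RCM1-NPFA tumors and 172, 171 and 151 in the combination tumors. The groups overlapped and the log2 fold changes were 0.17 (SE 0.094) after VCR, 0.14 (SE 0.094) after RCM1-NPFA and 0.13 (SE 0.094) after the combination. Mki67 had 533, 604 and 421 CPM in the vehicle-treated tumors, 412, 484 and 469 in the VCR tumors, 446, 594 and 514 in the RCM1-NPFA tumors and 555, 537 and 468 in the combination tumors, with log2 fold changes of -0.19 (SE 0.14) after VCR, -0.0023 (SE 0.14) after RCM1-NPFA and 0.003 (SE 0.14) after the combination. Neither was called in any of the 6 comparisons.

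The groups accounted for a small part of the variation between tumors. The median SD within groups was 0.17 on the log2 scale, against 0.19 over all tested genes. Groups accounted for a median of 15.3% of the variation of a gene, against 29.1% over all tested genes, and for 68.0% of that of Ccne1, 53.2% of Rfc3, 41.4% of Rrm2 and 0.555% of Pola2. With so few tumors in each group, such a share is above 0 even where treatment has no effect, so it is not a part explained by treatment. The lowest group mean was that of the vehicle-treated tumors for 35 of the 48 genes.

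The levels of the genes varied together from tumor to tumor. The median distance of the 48 genes from their mean over the 12 tumors, in log2 CPM, was -0.12, 0.12 and -0.19 in m1, m2 and m3. It was 0.05, 0.04 and 0.02 in the VCR tumors m4, m5 and m6. In m7, m8 and m9 it was -0.25, 0.25 and 0.02, and in m10, m11 and m12 it was 0.03, 0.10 and -0.01. The median over all tested genes stayed within 0.02 of 0 in every tumor. The extremes were both in the RCM1-NPFA group, where m8 had 48 of 48 genes above their mean and the highest value of the 12 tumors for 36, and m7 had 0 of 48 above and the lowest value for 29. Of the vehicle-treated tumors m2 was the highest for 44 of 48 genes and m3 the lowest for 35. The adult muscle fibre level was 515 TPM in m7, 626 TPM in m8 and 23501 TPM in m9, and 405 TPM in m2 and 363 TPM in m3. The leukocyte level was 2647 TPM in m7 and 3090.0 TPM in m8, the highest of the 12 tumors, but 1959.7 TPM in m2, the lowest, and 2734 TPM in m3. The adipocyte level was 61.5 TPM in m7 and 81.5 TPM in m8, and 334 TPM in m2 and 18.96 TPM in m3, the highest and the lowest of the 12. Lyz2 and Fabp4 made up much of the leukocyte and adipocyte sums, and the part of other cells in these differences was not tested. The 30 mitotic genes had medians of -0.13 in m7, 0.16 in m8, 0.08 in m2 and -0.25 in m3, in the same directions.

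**Figure D4:**
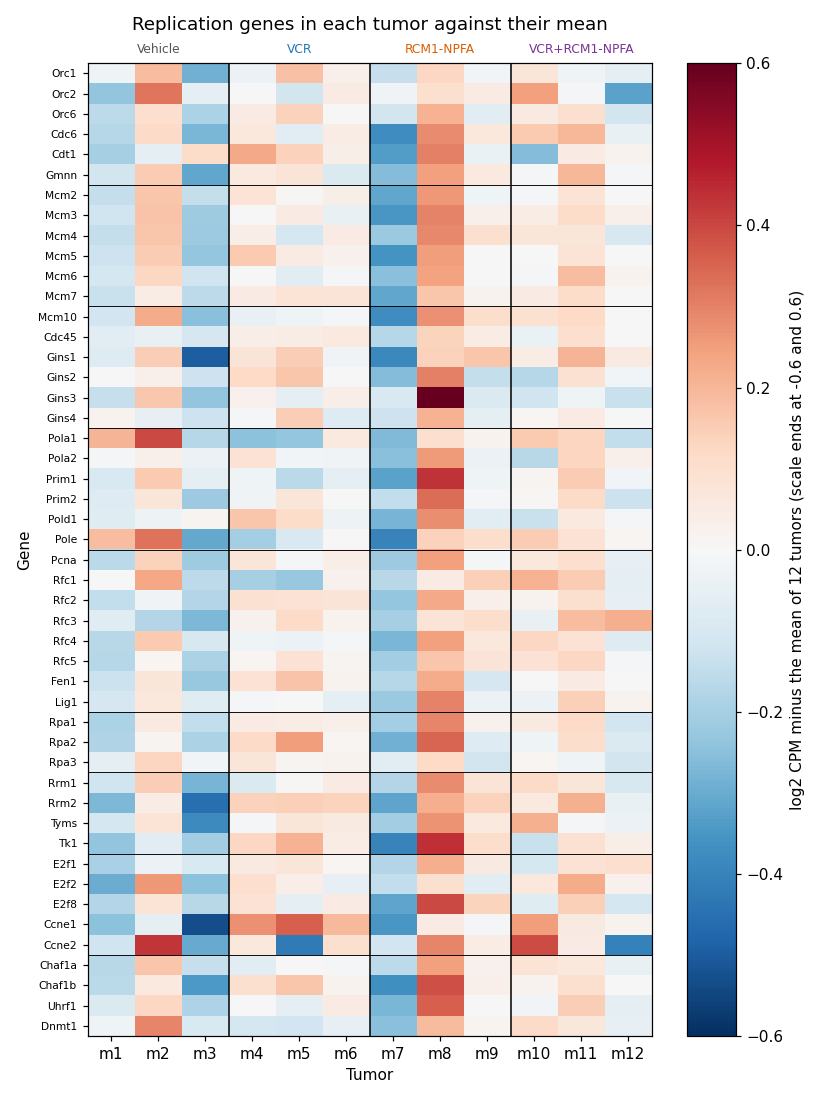
Log2 CPM of each of the 48 genes (rows, ordered by role) in each of the 12 tumors (columns) minus its mean over the tumors; red is higher, blue is lower and colors end at -0.6 and 0.6. The column of m8 is red and that of m7 blue for nearly every gene, and m2 and m3 differ in the same way within the vehicle group.

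After group means were taken out, the median correlation between pairs of the 48 genes over the 12 tumors was 0.78, against 0.71 between pairs of mitotic genes, 0.64 between a replication gene and a mitotic gene, and -0.001 between pairs of all tested genes. These are descriptions, and the values of a tumor share a library and its depth. With the median of the other members, 32 of the 48 genes correlated at 0.8 or more, led by Mcm3 (0.983) and Pcna (0.976). The least coupled were Rfc3 (0.488), Orc2 (0.505), Cdt1 (0.574) and Ccne2 (0.614). The leading and the last subunit of a complex in TPM were the same in 12 of 12 tumors for the MCM ring, GINS, RFC, polymerase alpha with primase, ribonucleotide reductase and CAF-1. In RPA the last was always Rpa2, and Rpa1 led in 9 of 12.

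After VCR the lowest values in the set fell on the longest transcripts. The 4 longest members, Pole, Pola1, Dnmt1 and Rfc1, were all below 0 after VCR, and of the 40 shorter than the 8 longest 3 were below 0. The median log2 fold change after VCR was -0.05 for the 8 longest, each of 3397 or more bases of effective length, and 0.11 for the other 40. After RCM1-NPFA 4 of the 8 longest and 1 of the other 40 were below 0, with medians of 0.007 and 0.084. After the combination the split was weak, with 3 of 8 and 4 of 40 below 0 and medians of 0.072 and 0.094, and Rpa3, the shortest of the 48, was the second lowest there. Across the 48 genes Spearman's correlation between log2 fold change and length was -0.50 after VCR, -0.32 after RCM1-NPFA and -0.31 after the combination. Over all tested genes it was -0.32, -0.22 and -0.19, so the relation was not limited to replication genes, and genes are not independent replicates. With GC content the correlation was 0.29, -0.04 and 0.11 across the 48 genes, in the same order. It was 0.32, 0.16 and 0.16 over all tested genes with a known GC content. The splines adjust for length and GC content together, so that fit does not separate them. With the splines in the fit 13 of the 48 genes changed sign after VCR. The 10 that went from above to below 0 were Cdt1, E2f1, Gins2, Gins4, Gmnn, Mcm3, Pold1, Chaf1a, Lig1 and Uhrf1, and the 3 that went the other way were Ccne2, Orc2 and Rfc1. Gins2 went from 0.13 to -0.09, Cdt1 from 0.18 to -0.02 and Ccne2 from -0.10 to 0.09. With the splines the value of Pola1 after VCR was -0.03 and that of Rfc1 0.010. The part of length, of GC content or of RNA quality in these differences was not tested otherwise.

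**Figure D5:**
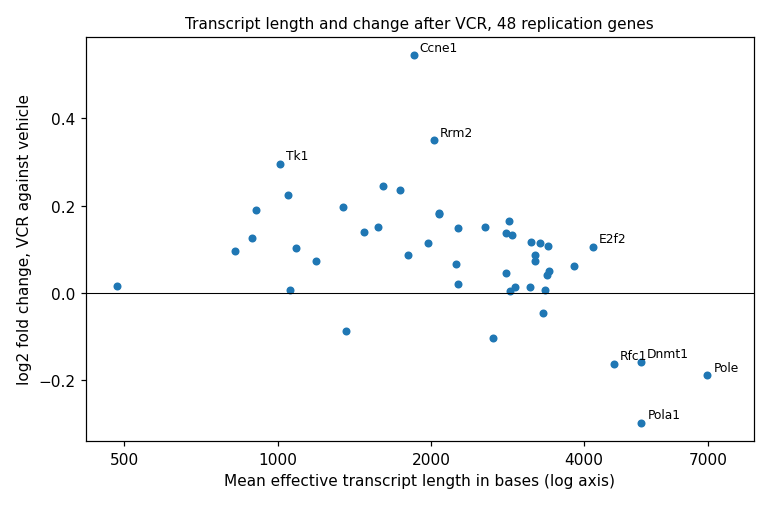
Log2 fold change after VCR against mean effective transcript length in bases (log axis), 1 point for each of the 48 genes. The 4 longest genes, Rfc1, Dnmt1, Pola1 and Pole, lie below 0 and most shorter genes lie above it.

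Other genes of the pathway were counted beside the 48. Of 82 further replication, nucleotide and histone supply, G1/S and fork checkpoint genes, 0 were called higher and 1 lower after VCR (2.8% and 2.75% of all tested genes), and 0 in the other 5 comparisons. The 1 was Rbl2, a relative of the retinoblastoma gene, with a log2 fold change of -0.28 (SE 0.077, adjusted p 0.0910). At an unadjusted p under 0.05 there were 10 of the 82 after VCR, 1 after RCM1-NPFA and 1 after the combination. Their median log2 fold changes were 0.01, 0.02 and 0.04. Of the 30 mitotic genes 4 were called higher after VCR and 0 lower (2.8% and 2.75% of all tested genes). They were Aurka and Plk1, kinases of the mitotic spindle (0.47, SE 0.10, adjusted p 0.0726 and 0.36, SE 0.079, adjusted p 0.0712), Cenpa, the centromeric histone (0.35, SE 0.082, adjusted p 0.0759), and Cdc20, the activator of the anaphase-promoting complex (0.29, SE 0.077, adjusted p 0.0871). Like that of Ccne1, these 5 calls depended on single tumors and on the fit. No gene at all was called after VCR without m2, m4 or m5, and with splines or only the groups compared each of the 5 was lost. Leaving out single tumors ended the calls of Aurka, Plk1 and Cenpa in 5 of 12 fits and those of Cdc20 and Rbl2 in 8 of 12, with adjusted p of up to 0.339, and limma-voom did not call Rbl2. In the other 5 comparisons 0 mitotic genes were called. The median of the mitotic genes was 0.15 after VCR, 0.10 after RCM1-NPFA and 0.10 after the combination.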

How the data were processed

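RNA-seq of 12 Rd76-9 tumors was analysed. The authors prepared poly-A libraries with a kit named as stranded but described as non-stranded, quantified reads against GRCm38 transcripts with kallisto and used DESeq2. Versions are not given in the sources used here. The deposited estimated counts carry no normalization and can be fractional, since kallisto divides reads shared by similar sequences; the deposited TPM values are scaled by transcript length and depth by the authors. Copies of the members elsewhere in the genome were not examined. Counts and TPM of all 120299 transcripts were summed per RefSeq gene (38898 genes), and counts were rounded. Depth was 29342195 to 32108055 per tumor, and the deposited effective lengths were used for length checks.

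Genes were filtered by filterByExpr (minimum count 10), scaled by TMM and compared by quasi-likelihood F tests (edgeR 4.0.16, R 4.3.3) with all 4 groups in a single model, with Benjamini-Hochberg adjustment over all tested genes and a threshold of 0.1, as in the study. Fold changes are on the log2 scale; CPM were normalized by TMM. Exact permutation tests used log2(CPM + 0.1). Values named by tumor were those of members past the threshold, of the 3 highest and 3 lowest members in each comparison with vehicle, and of the most abundant member of each role. Ccne2, and values given without tumors, were added after the values were seen. The members, lists and tests were chosen with earlier results of these data known. Alternatives were DESeq2 1.42.0 (Wald test or size factors), limma-voom (limma 3.58.1), other filters, length offsets, robust estimation, fits of only the groups compared, a threshold of 0.05, leaving out each tumor and, chosen after seeing the data, GC and length splines. The fits were tested on simulated data. Promoters were searched in RefSeq sequences of GRCm38.p6; for 9 members none were used here.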

Additional observations from a re-analysis of the deposited data

How the results depend on the processing

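The 12 medians and counts over the 48 genes were recomputed under each alternative. The count of called genes stayed at 0 in all comparisons but VCR against vehicle. There it was 1 as reported, 0 with GC and length splines (chosen after seeing the data), 0 with only the groups compared, 0 at a threshold of 0.05 and 2 (Ccne1 and Tk1) with DESeq2 on only the groups compared, and it ran from 0 to 1 when a tumor was left out. Over all tested genes that comparison called 977, against 2012 without m6 and 0 without any of m2, m4 and m5. It called 82 with splines, 465 with only the groups compared, 599 with no filter and 2215 with DESeq2 on all tumors. The medians moved by less than the spread between tumors of a group (0.15). When a tumor was left out they ran from 0.03 to 0.17 after VCR, -0.04 to 0.19 after RCM1-NPFA, 0.04 to 0.17 after the combination, -0.03 to 0.04 against VCR, -0.10 to 0.15 against RCM1-NPFA and -0.19 to 0.03 for the interaction. With splines 13 of the 48 genes changed sign after VCR, 6 after RCM1-NPFA and 6 after the combination. Of the highest and lowest genes of each comparison these were Rfc1 after VCR (0.0097) and, after the combination, Pola1 (0.0139), Rpa3 (0.014) and Orc2 (0.019). When a tumor was left out it changed for Pole (-0.288 to 0.0299), Dnmt1 (-0.179 to 0.0486) and Gins3 (-0.0277 to 0.399) after RCM1-NPFA and for Pola1 (-0.251 to 0.0108) and Orc2 (-0.198 to 0.126) after the combination. The cause was not tested. Of all 48 genes, 16 changed sign without some tumor after VCR, 34 after RCM1-NPFA and 15 after the combination, and 18, 9 and 8 did so under some alternative that kept all tumors. No paired analysis was possible because each tumor has its own number and no number is shared between groups. Each gene had at least 334 counts in each tumor, and the median 95% interval reached 0.28 to either side of the estimate, so a difference within the interval of a gene could not be told from none.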

Other observations

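The files resolve transcripts as well as genes. RefSeq lists 1 transcript for 17 of the 48 genes, among them Ccne1, Rrm2 and Pcna, and more for 31, up to 12 for Pola2. For 8 genes the leading transcript held under 60% of the TPM of the gene. It held 33.3% for Ccne2 (22.6% to 49.7% over the 12 tumors), 39.3% for E2f2 (23.0% to 54.9%), 46.3% for Tk1 (41.4% to 51.3%), 47.0% for Dnmt1 (37.9% to 52.4%), 47.8% for Fen1 (38.7% to 56.1%), 50.4% for Rfc1 (44.5% to 63.0%), 52.7% for E2f8 (42.0% to 66.9%) and 57.9% for Cdc45 (53.0% to 61.1%). The level of Ccne2, the most variable of the 48, is thus a sum over 7 transcripts, and that of Ccne1 is the level of 1.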
